A study of Homo sapiens with 6 samples.

Results

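The 32 genes described here encode the enzymes that make cholesterol and fatty acids and the proteins that control them. They were taken by symbol from a table of 38637 genes: 19 enzymes of the sterol pathway, 6 control and transport genes, and 7 enzymes of fatty acid synthesis. All 32 were present and all 32 passed the filter on low values, among the 16178 genes that did. RNA sequencing was carried out on poly(A)-selected RNA from OVCAR8, an established human ovarian cancer cell line of wild-type genotype. The cells had been given the solvent DMSO or 2 nM pladienolide B, an inhibitor of the splicing factor SF3B1, and were collected after 72 h. Each group held 3 samples, and both groups were the same line without any genetic change. The labels do not say that the samples came from separate cultures, so the p-values measure the spread between these samples, which may be technical.

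Cholesterol is built from acetyl-CoA through mevalonate, isoprenoid diphosphates, squalene and lanosterol, and fatty acids are built from the same acetyl-CoA through malonyl-CoA. Both routes are switched on by the SREBP transcription factors, encoded by SREBF1 and SREBF2. The escort protein SCAP carries their precursors from the endoplasmic reticulum to the Golgi for cleavage, the INSIG proteins hold SCAP back when sterols are plentiful, and SREBF2 is best known for sterol genes while SREBF1 is best known for fatty acid genes.

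Values are adjusted reads, that is, read counts adjusted by the authors for library size, from samples with 22621338 to 26130882 reads on genes. DMSO replicate 2 stood apart from the other DMSO samples: the chi-square per degree of freedom, which is 1 when samples differ by counting alone, was 7.82 and 7.74 against replicates 1 and 3 and 2.01 between those replicates. It ranged from 3.21 to 4.82 between the pladienolide B samples. Without DMSO replicate 2, the counts given next became 12 higher and 4 lower of the sterol enzymes, 1 higher and 4 lower of the control genes, and 2 higher and 5 lower of the fatty acid enzymes. The epithelial markers KRT7, KRT8 and KRT18 and the ovarian lineage marker PAX8 were well expressed, PAX8 at 4011 to 4581 adjusted reads, and EPCAM at 431.5 to 513, while KRT19, WT1 and MUC16 were at most 24.8, 33.8 and 22.8. The blood cell markers PTPRC and CD3E were at or near 0, whereas CD68 and COL1A1 were expressed in all samples. Some markers differed between the groups: mean KRT7 was 12530 adjusted reads in DMSO and 8115 in pladienolide B (limma adjusted p 7.7e-06). KRT8 and KRT18 moved the other way, from 41460 to 49900 (limma adjusted p 8.4e-04) and from 19130 to 23550 (limma adjusted p 9.6e-04). The summed level of the 8 epithelial and ovarian cancer markers ranged from 75640 to 81830 in DMSO and from 77500 to 92750 in pladienolide B. Mean CD68 was 1146 and 1526 (limma adjusted p 2.4e-05), and mean COL1A1 was 6800 and 5901 (limma adjusted p 0.0014). The summed level of the 7 markers of other cells ranged from 7810 to 8227 adjusted reads in DMSO and from 7157 to 7928 in pladienolide B, a sum in which the opposite moves of CD68 and COL1A1 offset each other in part. The part of these markers in the results was not tested. In bulk RNA, a change in RNA per cell and a change in the mixture of cells cannot be told apart.

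In pladienolide B-treated cells the sterol pathway and the fatty acid pathway were both altered, and neither moved as a block. Of the 19 sterol enzymes, 11 were higher and 4 were lower. Of the 7 fatty acid enzymes, 2 were higher and 5 were lower. Of the 6 control and transport genes, INSIG1 was higher, INSIG2, SREBF1 and STARD4 were lower, and SCAP and SREBF2 did not pass the test. Changes were called by limma at an adjusted p below 0.05, with Benjamini-Hochberg adjustment over all 16178 genes. By this rule 26 of the 32 genes were called, against 47.6% of all genes tested. Higher calls made up 14 of 32 genes against 22.4% of all genes, and lower calls made up 12 of 32 against 25.2%. The groups did not overlap for 27 of the 32 genes, and they did not overlap for 55.3% of all genes. The median log2 fold change was 0.22 for the sterol enzymes, -0.12 for the control and transport genes and -0.30 for the fatty acid enzymes, beside -0.0042 over all genes tested. A change of at least 2-fold with a call was seen for INSIG2 and ACACA, both lower. Such changes were found for 3.93% of all genes in either direction and for 1.98% downward.

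**Figure D1:**
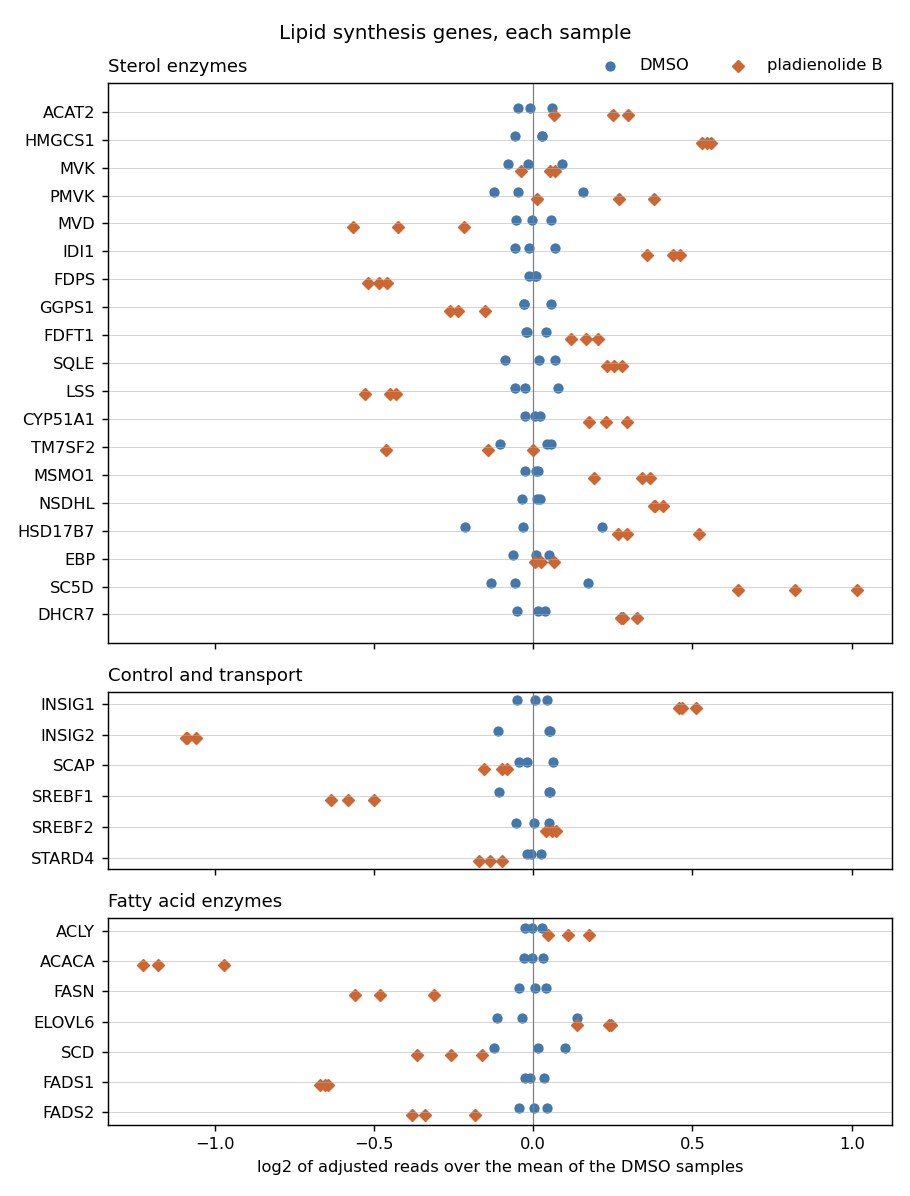
Each point is 1 sample of DMSO (circles) or pladienolide B (diamonds), plotted as the log2 of its adjusted reads over the mean of the 3 DMSO samples, with genes grouped by pathway arm. Most diamonds of the sterol enzymes lie to the right of 0 apart from MVD, FDPS, GGPS1, LSS and TM7SF2, most of the fatty acid enzymes lie to the left, and INSIG2 and ACACA lie farthest left.

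The entry into the sterol pathway was higher in pladienolide B. HMGCS1, the synthase that forms HMG-CoA in the cytosol, had 5524, 5858 and 5864 adjusted reads in DMSO replicates 1 to 3 and 8472, 8293 and 8394 in pladienolide B replicates 1 to 3. Every treated sample stood far above every control. The log2 fold change was 0.55 ± 0.04 (SE, n = 3 per group), with an adjusted p of 1.2e-08 by limma. ACAT2, the thiolase that supplies acetoacetyl-CoA, rose by 0.20 ± 0.06 on the log2 scale (limma adjusted p 0.0072), and its lowest treated sample lay just above its highest control, at 2238 against 2228. The call was lost without pladienolide B replicate 3, with a log2 fold change of 0.16 and a limma adjusted p of 0.0546. The ACAT2 gene overlaps TCP1 by 615 bases and SOD2 by 237 bases on the other strand, and the strand setting of the read counting is not given in the sources used here.

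Between mevalonate and the isoprenoid diphosphates the enzymes moved in different directions. MVK and PMVK, the kinases that phosphorylate mevalonate, did not pass the test, with log2 fold changes of 0.03 (95% interval -0.10 to 0.16) and 0.22 (-0.0040 to 0.45). PMVK passed without DMSO replicate 2 and without pladienolide B replicate 2, at log2 fold changes of 0.30 and 0.33 and limma adjusted p values of 0.0274 and 0.0276, and the sign of MVK turned without DMSO replicate 1, to -0.01. MVD, the decarboxylase that yields isopentenyl diphosphate, had 2974, 3097 and 2868 adjusted reads in DMSO and 2219, 2563 and 2012 in pladienolide B. All MVD values with the drug were below all controls, with a wider spread among treated samples, and the log2 fold change was -0.40 ± 0.07 (limma adjusted p 1.0e-04). IDI1, the isomerase that makes its partner dimethylallyl diphosphate, had 4803, 5236 and 4943 adjusted reads in DMSO against 6770.2, 6390.3 and 6877 in pladienolide B. IDI1 therefore stood above its controls in every treated sample, by 0.42 ± 0.04 on the log2 scale (limma adjusted p 8.8e-07). IDI1 shares 320 bases on the opposite strand with WDR37, which had a log2 fold change of 0.33 and an average of 843 adjusted reads in DMSO.

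FDPS and GGPS1 build the longer isoprenoids used for sterols, ubiquinone, dolichol and protein prenylation, and both were lower. FDPS, farnesyl diphosphate synthase, had 2816, 2859 and 2853 adjusted reads in DMSO and 2067, 2032 and 1982 in pladienolide B. Its samples hardly varied within either group and the groups were well apart, with a log2 fold change of -0.49 ± 0.04 (limma adjusted p 1.3e-07). The antisense gene RUSC1-AS1 overlaps FDPS by 3812 bases, held 15.6% as many adjusted reads in DMSO and had a log2 fold change of -0.30 (limma adjusted p 0.0058), and without strand information reads of the pair could be exchanged. GGPS1, geranylgeranyl diphosphate synthase, acts on the isoprenoid branch off the route to cholesterol, though it is counted here with the sterol enzymes. GGPS1 ranged from 1095 to 1162 adjusted reads in DMSO and from 932 to 1007 with the drug. Its log2 fold change was -0.22 ± 0.06 (limma adjusted p 0.0049). The GGPS1 gene overlaps ARID4B by 1009 bases on the other strand.

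At the committed steps of sterol synthesis, both squalene enzymes rose while lanosterol synthase fell. FDFT1, squalene synthase, ranged from 3723 to 3894 adjusted reads in DMSO and from 4107 to 4355 in pladienolide B, and its log2 fold change was 0.16 ± 0.04 (limma adjusted p 0.0045). SQLE, the epoxidase of squalene, ranged from 5931 to 6609 adjusted reads in DMSO and from 7408 to 7649 in pladienolide B, and rose by 0.26 ± 0.04 on the log2 scale (limma adjusted p 1.4e-04). LSS, which closes the ring of lanosterol, had 2386, 2336 and 2566 adjusted reads in DMSO and 1801, 1779 and 1687 in pladienolide B. The LSS groups did not meet, and the log2 fold change was -0.47 ± 0.05 (limma adjusted p 9.9e-07).

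Ratios within a sample show the size of these opposite changes. The ratio of HMGCS1 to MVD was 1.93 ± 0.10 in DMSO and 3.74 ± 0.47 in pladienolide B (mean ± SD, n = 3 per group). That of FDFT1 to FDPS was 1.33 ± 0.03 and 2.09 ± 0.06, and that of SQLE to LSS was 2.60 ± 0.20 and 4.29 ± 0.21. These are ratios of adjusted reads without correction for transcript length, so only their change between the groups is read. Each ratio pairs a gene that was higher with a gene that was lower, so its direction follows from the choice of genes and it is given as a description, with no test.

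From lanosterol to cholesterol, 6 of the 8 enzymes were higher, and TM7SF2 and EBP did not pass the test. CYP51A1, the lanosterol demethylase, ranged from 2833 to 2926 adjusted reads in DMSO and from 3256 to 3535 in pladienolide B, with a log2 fold change of 0.23 ± 0.04. MSMO1, the methylsterol oxidase, ranged from 2213 to 2274 and from 2569 to 2904, with a log2 fold change of 0.30 ± 0.05. NSDHL, the dehydrogenase acting beside it, had 649.6, 654 and 629 adjusted reads in DMSO and 838, 840.1 and 855 in pladienolide B. The NSDHL values were tightly grouped on both sides, with a log2 fold change of 0.39 ± 0.06 (limma adjusted p 4.8e-05). DHCR7, a reductase of the final step, ranged from 2229 to 2369 adjusted reads in DMSO and from 2796 to 2893 in pladienolide B, with a log2 fold change of 0.29 ± 0.04. HSD17B7, a ketoreductase, rose by 0.37 ± 0.12 from a mean of 176 adjusted reads (limma adjusted p 0.022). Its call was lost without DMSO replicate 1, DMSO replicate 3 or pladienolide B replicate 3, at log2 fold changes of 0.36, 0.27 and 0.29. Its pseudogene HSD17B7P2 held 45.6% as many adjusted reads in DMSO, so the split of reads between these near-identical sequences is uncertain.

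SC5D, a sterol desaturase, had the highest log2 fold change of the 32 genes and the lowest level. It was measured at 50.7, 53.4 and 62.5 adjusted reads in DMSO and at 112, 86.8 and 98.2 in pladienolide B. Every treated value was above every control, but the counts were small, and the log2 fold change of 0.82 had a 95% interval from 0.46 to 1.19 (limma adjusted p 8.8e-04). TM7SF2, a sterol reductase, ranged from 110 to 123 adjusted reads in DMSO and from 85.9 to 118 in pladienolide B. EBP, the sterol isomerase, ranged from 1353 to 1464 and from 1419 to 1479. Both overlapped between groups and did not pass the test, with log2 fold changes of -0.20 (-0.52 to 0.12) and 0.03 (-0.08 to 0.14).

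**Figure D2:**
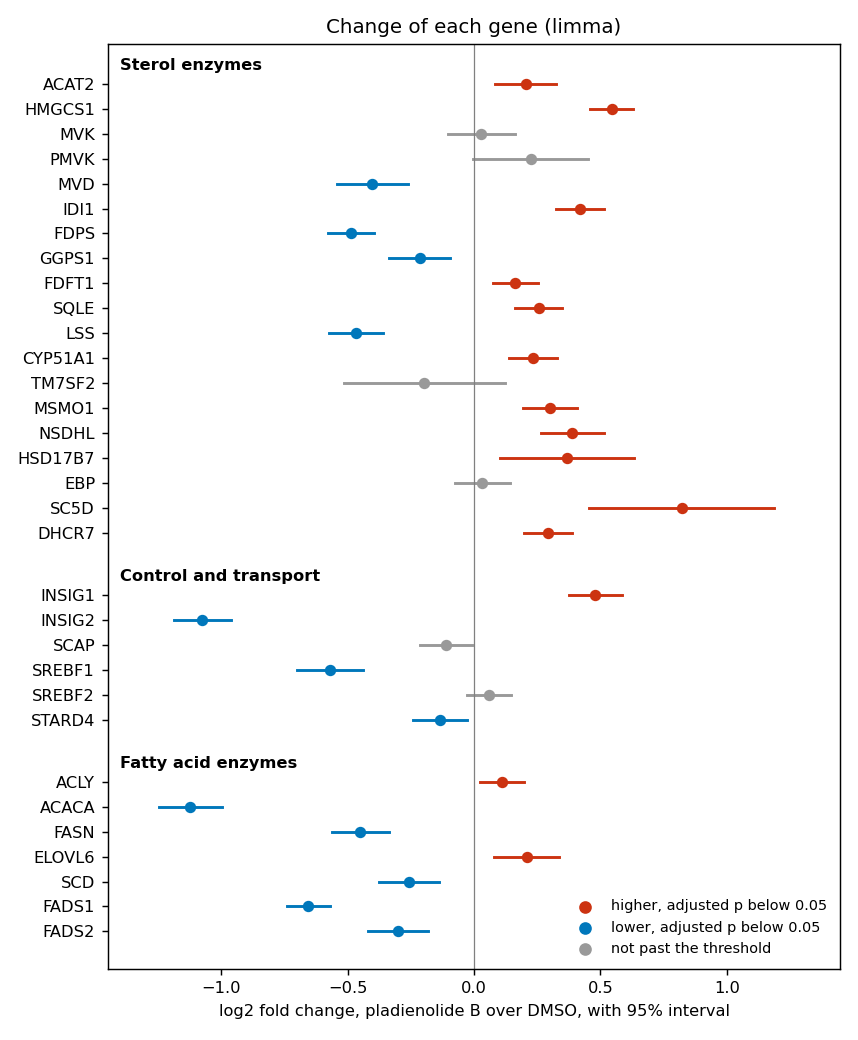
Log2 fold changes (pladienolide B against DMSO) of the 32 genes with 95% intervals from limma, coloured by whether the adjusted p was below 0.05. Red genes make up 11 of the 19 sterol enzymes, blue genes make up 5 of the 7 fatty acid enzymes, and the intervals of INSIG2 and ACACA lie farthest below 0.

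Among the control genes, the INSIG pair moved in opposite directions. INSIG1, which is itself a well-known SREBP target, lies at chr7:155297878-155310235 on the + strand (GRCh38) and had 1322, 1271 and 1356 adjusted reads in DMSO and 1818, 1808 and 1877 in pladienolide B. All treated samples were above all controls, by 0.48 ± 0.05 on the log2 scale (limma adjusted p 6.3e-07). INSIG2, its relative with the same retention function, lies at chr2:118088471-118110997 on the + strand and had 2449, 2194 and 2454 adjusted reads in DMSO and 1112, 1113 and 1136 in pladienolide B. The treated samples of INSIG2 were nearly equal and stood at 47.4% of the DMSO mean, a log2 fold change of -1.08 ± 0.05 (limma adjusted p 1.2e-10). The ratio of INSIG1 to INSIG2 adjusted reads was 0.540, 0.579 and 0.552 in DMSO and 1.63, 1.62 and 1.65 in pladienolide B. On the scale of reads per kilobase of the canonical transcript in a library of 1000000 reads, the level of INSIG2 was 27.1 ± 1.7 and that of INSIG1 18.5 ± 0.6 in DMSO (mean ± SD, n = 3), and in pladienolide B the levels were 12.8 ± 0.2 and 25.8 ± 0.5. The order of the INSIG levels per length was therefore opposite in the groups.

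**Figure D3:**
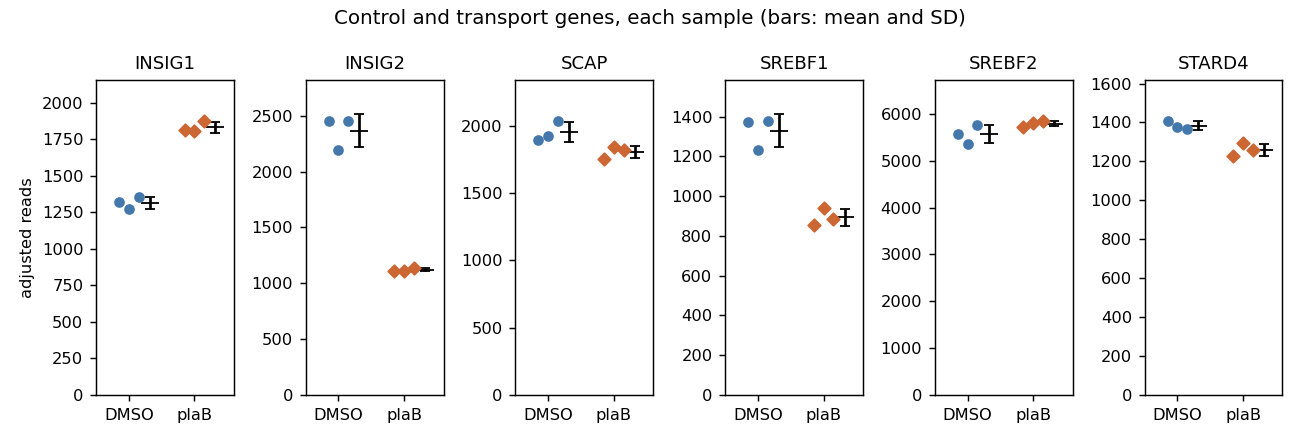
Adjusted reads of the 6 control and transport genes in each sample, with bars for the mean and SD of 3 samples per group and axes that start at 0 (plaB: pladienolide B). INSIG1 is higher, INSIG2 and SREBF1 are lower with a wide gap, and SCAP, SREBF2 and STARD4 lie close between the groups.

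The SREBP genes themselves also differed. SREBF1 had 1374, 1232 and 1378 adjusted reads in DMSO and 855, 939 and 887 in pladienolide B. The lowest control, DMSO replicate 2, was still above the highest treated sample, and the log2 fold change was -0.57 ± 0.06 (limma adjusted p 9.5e-07). The SREBF1 gene shares 120 bases with RAI1 on the other strand, which had a log2 fold change of -0.06 (limma adjusted p 0.44). SREBF2 had 5581, 5366 and 5758 adjusted reads in DMSO and 5727, 5805 and 5852 in pladienolide B. Its groups overlapped and it did not pass the test, with a log2 fold change of 0.06 and a 95% interval from -0.03 to 0.14. SREBF2 overlaps SREBF2-AS1 by 1561 bases on the other strand, and that antisense gene had a log2 fold change of 0.28 (limma adjusted p 0.016) at 6.13% of the reads of SREBF2. SHISA8 shares a further 1260 bases with SREBF2 on the other strand and had a log2 fold change of 0.02 (limma adjusted p 0.85). The ratio of SREBF1 to SREBF2 adjusted reads went from 0.238 ± 0.008 to 0.154 ± 0.007 (mean ± SD, n = 3 per group).

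SCAP ranged from 1892 to 2035 adjusted reads in DMSO and from 1752 to 1841 in pladienolide B. The SCAP groups did not overlap, but the gene did not pass the test, with a log2 fold change of -0.11 (limma adjusted p 0.070), and it passed without DMSO replicate 2, at -0.12 (limma adjusted p 0.0429). STARD4, which carries sterol between membranes, ranged from 1366 to 1409 adjusted reads in DMSO and from 1230 to 1292 in pladienolide B, with a log2 fold change of -0.14 ± 0.05 (limma adjusted p 0.036). Its call was lost when any sample but DMSO replicate 2 or pladienolide B replicate 2 was left out, with log2 fold changes from -0.15 to -0.12 and the highest limma adjusted p at 0.127. CAMK4, on the other strand, overlaps STARD4 by 7082 bases and had a log2 fold change of -0.18 (limma adjusted p 0.014) at 79.0% of its reads.

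Promoter sequence was compared because SREBPs bind DNA beside the CCAAT-binding factor NF-Y in many genes of this pathway. RefSeq windows of 250 bases before to 50 bases after the start site on GRCh38.p14 were matched by symbol for 28 of the 32 genes, all but ACAT2, FDFT1, SQLE and FASN. The start site of the window lay 11520 bases from the gene start in the table for ACLY, 5939 bases for PMVK and 1185 bases for SCAP. It lay 584 bases away for ELOVL6, 333 for MVK and 326 for CYP51A1. The windows of these genes may therefore belong to another start site. CCAAT, searched on both strands, was found in 17 of 28 windows (60.7%), beside 36.3% of the windows of 12198 tested genes and 34.6% of all 35116 windows. It was present in 8 of 11 windows of higher genes, 5 of 11 of lower genes and 4 of 6 of genes not called. The sterol regulatory element TCACNCCAC, on both strands, was found in 1 window, that of SREBF2, and in 1.04% of the windows of tested genes and 1.13% of all windows. Only this exact form was searched, so a window without a match is not shown to lack a site. The E-box CACGTG was found in 4 of 28 windows (14.3%), beside 9.80% of those of tested genes and 7.26% of all windows. The match to the sterol regulatory element in the SREBF2 promoter, at chr22:41832962-41832991 on the + strand, began 133 bases before the start site and is in capitals here.
SREBF2: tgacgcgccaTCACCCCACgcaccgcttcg

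The stretches below, upstream of the start site and outside annotated exons, are examples from higher and lower genes. Each CCAAT or its reverse complement ATTGG is in capitals (RefSeq windows, GRCh38.p14, + strand). The MSMO1 stretch, chr4:165327419-165327666, held 4 matches in a gene that was higher. The SCD stretch, chr10:100346983-100347232, held 2 in a gene that was lower. The INSIG1 stretch, chr7:155297628-155297775, held 1, and the INSIG2 stretch, chr2:118088221-118088451, held none. Among such stretches not shown here, those of the higher genes DHCR7, HSD17B7 and SC5D held 2, 1 and 0. The SC5D stretch ended 91 bases before the start site, and the whole SC5D window held a match that began 56 bases before that site. Those of the lower genes LSS, GGPS1 and ACACA held 1, 0 and 0, and that of EBP, not called, held 3. A match describes letters in the window and is not evidence of binding.
MSMO1 (higher): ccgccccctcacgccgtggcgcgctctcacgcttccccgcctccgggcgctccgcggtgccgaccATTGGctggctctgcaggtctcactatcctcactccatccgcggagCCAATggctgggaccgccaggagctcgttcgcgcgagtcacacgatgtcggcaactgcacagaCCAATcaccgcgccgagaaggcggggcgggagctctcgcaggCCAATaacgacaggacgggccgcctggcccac
SCD (lower): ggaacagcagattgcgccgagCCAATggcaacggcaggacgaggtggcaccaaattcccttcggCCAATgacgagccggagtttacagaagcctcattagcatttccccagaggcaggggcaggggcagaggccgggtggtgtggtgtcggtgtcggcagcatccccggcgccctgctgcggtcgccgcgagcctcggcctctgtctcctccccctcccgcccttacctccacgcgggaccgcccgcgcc
INSIG1 (higher): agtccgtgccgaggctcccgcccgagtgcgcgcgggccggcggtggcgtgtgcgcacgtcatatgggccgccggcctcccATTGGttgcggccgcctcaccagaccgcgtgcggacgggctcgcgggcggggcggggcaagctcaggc
INSIG2 (lower): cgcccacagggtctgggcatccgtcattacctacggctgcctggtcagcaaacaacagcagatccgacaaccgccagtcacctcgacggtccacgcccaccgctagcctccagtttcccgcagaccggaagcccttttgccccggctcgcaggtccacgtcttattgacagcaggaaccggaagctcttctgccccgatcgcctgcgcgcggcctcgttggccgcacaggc

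In fatty acid synthesis, the genes of the enzymes that make malonyl-CoA and palmitate were lower. ACACA, the cytosolic acetyl-CoA carboxylase that makes malonyl-CoA and sets the rate of the pathway, lies at chr17:37084992-37406836 on the - strand and had 2663, 2706.5 and 2774 adjusted reads in DMSO and 1162.5, 1201 and 1384 in pladienolide B. Treated samples stood at 46.0% of the DMSO mean with no overlap, and the log2 fold change of -1.12 ± 0.06 was the lowest of the 32 genes (limma adjusted p 2.5e-10). FASN, the multifunctional synthase that makes palmitate, had 6776, 6549 and 6941 adjusted reads in DMSO and 4589, 4838 and 5445 in pladienolide B. FASN was thus below its controls in every treated sample, with a log2 fold change of -0.45 ± 0.05 (limma adjusted p 2.9e-06). ACLY, which splits citrate to supply acetyl-CoA to both pathways, had 9813, 9443 and 9605 adjusted reads in DMSO and 9937, 10387 and 10851 in pladienolide B. The gap between the ACLY groups was small, at a log2 fold change of 0.11 ± 0.04 (limma adjusted p 0.037). The call was lost without DMSO replicate 1, DMSO replicate 3, pladienolide B replicate 2 or pladienolide B replicate 3, at log2 fold changes from 0.08 to 0.13. The ratio of ACACA to ACLY adjusted reads went from 0.282 ± 0.0095 to 0.12 ± 0.0065 (mean ± SD, n = 3 per group).

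The desaturases FADS1, FADS2 and SCD were lower and the elongase ELOVL6 was higher. FADS1, which introduces a double bond into polyunsaturated fatty acids, had 5202, 5366 and 5149 adjusted reads in DMSO and 3291, 3328 and 3351 in pladienolide B. The FADS1 groups were compact and far apart, with a log2 fold change of -0.66 ± 0.04 (limma adjusted p 1.5e-09). FADS2, the desaturase that acts earlier in the same route, ranged from 1695.5 to 1804 adjusted reads in DMSO and from 1344.5 to 1541 in pladienolide B, with a log2 fold change of -0.30 ± 0.06 (limma adjusted p 3.3e-04). FADS1 and FADS2 lie on opposite strands of chromosome 11 and overlap by 801 bases. SCD, which makes oleate from stearate, had 7181, 6536 and 7614 adjusted reads in DMSO and 5523, 5945 and 6358 in pladienolide B. Its highest treated sample came close to DMSO replicate 2, and the log2 fold change was -0.26 ± 0.06 (limma adjusted p 0.0012). ELOVL6, which lengthens palmitate, had 1461, 1737 and 1543 adjusted reads in DMSO and 1871, 1862.5 and 1737 in pladienolide B. DMSO replicate 2 and pladienolide B replicate 3 of ELOVL6 were the same to within 1 adjusted read. Its log2 fold change was 0.21 ± 0.06 (limma adjusted p 0.0092), and the call was lost without DMSO replicate 1, at 0.15 (limma adjusted p 0.0612).

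Compared per length, on the same scale of reads per kilobase, the level of ACLY in DMSO was the highest of the 32 genes at 91.5 ± 1.8 (mean ± SD, n = 3). SQLE followed at a level of 86.9 ± 4.8, with samples that overlapped those of ACLY above it and those of FDPS below it, at 81.9 ± 0.7. FDFT1 was next at a level of 75.9 ± 1.9, and its samples overlapped those of IDI1 at 74.4 ± 3.3. In pladienolide B the level of SQLE was 104 ± 2, that of IDI1 99.6 ± 3.8 and that of ACLY 98.8 ± 4.4, while FDPS was at 58.4 ± 1.2. The lowest levels per length in DMSO were those of SC5D at 0.331 ± 0.037, TM7SF2 at 3.06 ± 0.19 and HSD17B7 at 4.71 ± 0.71. ACACA, at a level of 11.1 ± 0.2 in DMSO, was within the spread of SREBF1 at 11.1 ± 0.7, and in pladienolide B the levels were 5.09 ± 0.48 and 7.44 ± 0.35.

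Gene structure, which the selection of the genes had not used, varied widely among them. The canonical transcripts held from 4 to 56 exons, and the gene with 56 was ACACA, spread over 322 kb. The median was 8.5 exons for the 14 higher genes, 11.5 for the 12 lower genes and 10.5 for the 6 not called. Over the 15059 tested genes matched to the annotation, it was 9 for higher genes, 10 for lower genes and 7 for those not called. The median span of the transcript was 22.2 kb for the higher genes and 18.8 kb for the lower genes, an order opposite to that of the exon numbers. Across the 32 genes, Spearman's correlation with log2 fold change was -0.45 for exon number and -0.11 for span, and across the 15059 genes it was -0.082 and -0.041. These correlations run across genes measured in the same 6 libraries, and genes are not independent replicates.

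Other genes of the same pathways were examined as 8 lists of 78 genes, of which 76 could be tested, ABCG1 and THRSP being too low. In these lists 30 genes were higher and 22 lower, 68.4% of those tested, beside 47.6% of all genes tested (22.4% higher and 25.2% lower), and the median log2 fold change was 0.08. The lower share was thus close to that over all genes. In SREBP processing and sterol sensing, 6 of 10 were higher and 2 lower. MBTPS1, the protease that makes the first cut in SREBP precursors, had 2471, 2379 and 2458 adjusted reads in DMSO and 1333, 1474 and 1483 in pladienolide B. All treated MBTPS1 values were far below the controls, with a log2 fold change of -0.77 ± 0.05 (limma adjusted p 4.2e-09). SPRING1, a partner of that protease, rose by 0.38 on the log2 scale (limma adjusted p 9.8e-06), and UBXN8, an adaptor in the endoplasmic reticulum membrane, rose by 0.41 (limma adjusted p 7.7e-04). Of 14 genes of sterol uptake, transport and export, 6 were higher and 1 lower. SOAT1, which esterifies cholesterol, rose by 0.57, NPC1, which exports it from lysosomes, by 0.54 and GRAMD1B, which moves it from the plasma membrane, by 0.39 on the log2 scale. Of 6 redox partners and assembly factors of sterol synthesis, 3 were higher and 1 lower. ERG28, a scaffold of the demethylation enzymes, rose by 0.50 and POR, the reductase that passes electrons to CYP51A1 and SQLE, by 0.38. MMAB, which overlaps MVK by 120 bases on the other strand, had a log2 fold change of -0.34 where MVK had 0.03.

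**Figure D4:**
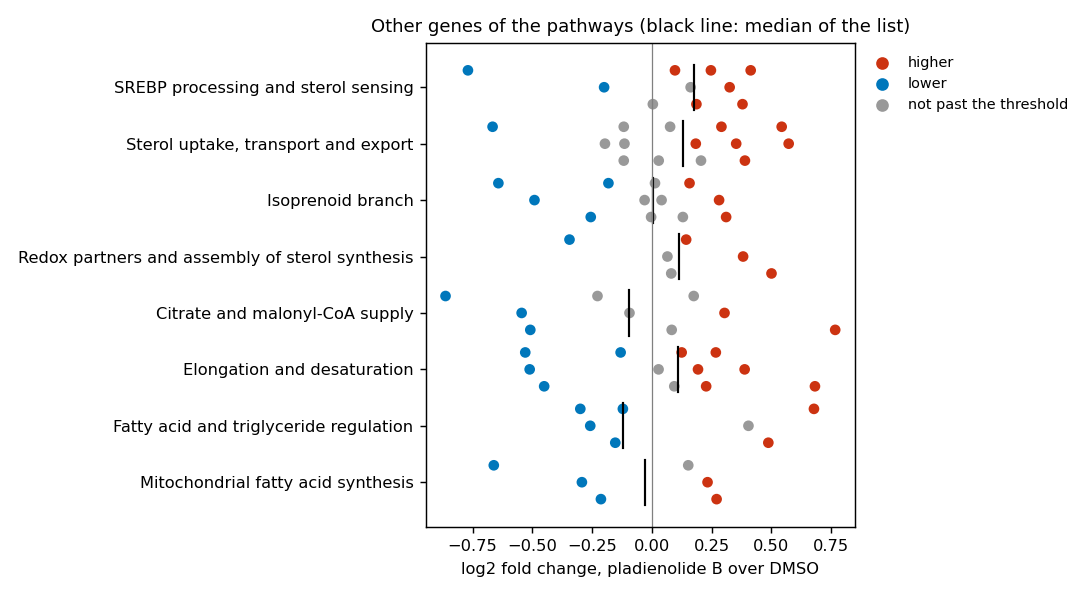
Each point is the log2 fold change of 1 gene in the 8 lists of further pathway genes, coloured by whether its adjusted p from limma was below 0.05, with a black line at the median of each list. Higher and lower genes occur in every list, and list medians lie between -0.12 and 0.18.

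On the fatty acid side, 2 of 9 genes of citrate and malonyl-CoA supply were higher and 3 lower, a called share of 55.6% that lies near the 47.6% over all genes. ACACB, the mitochondrial relative of ACACA, had 222, 201 and 201 adjusted reads in DMSO and 124, 96.5 and 123 in pladienolide B. ACACB was lower in all treated samples, with a log2 fold change of -0.86 ± 0.13 (limma adjusted p 4.0e-05), beside -1.12 for ACACA. SLC25A1, the mitochondrial citrate carrier upstream of ACLY, had a log2 fold change of -0.54 (limma adjusted p 9.7e-08), and ACSL5, an acyl-CoA synthetase with few reads, rose by 0.77 (limma adjusted p 0.0032). Among 12 genes of elongation and desaturation, 6 were higher and 4 lower. They include SCD5, a relative of SCD, which rose by 0.23 (limma adjusted p 0.0041) and was chosen after its values were seen. ELOVL4, an elongase of very long chains, rose by 0.68, while HACD2, a dehydratase of the elongation cycle, and ELOVL2, an elongase of polyunsaturated chains, had log2 fold changes of -0.53 and -0.51. Among 7 genes of fatty acid and triglyceride regulation, 2 were higher and 4 lower. LPIN1, a phosphatidate phosphatase, rose by 0.68 and GPAM, which adds an acyl chain to glycerol phosphate, by 0.49. PRKAA2, a catalytic subunit of the AMP-activated kinase that phosphorylates ACACA, had a log2 fold change of -0.30 (limma adjusted p 0.0040).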

How the data were processed

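RNA sequencing of OVCAR8 cells was analysed in 6 samples, 3 with DMSO and 3 with pladienolide B, grouped by their labels. The methods state alignment to hg38 with hisat2 and analysis with DESeq2. The submitters' processing notes name HISAT2, HTSeq 0.12.4, DESeq2 and hg19, and all 32 gene positions overlapped GENCODE v44 on GRCh38. The strand setting of counting is not given in the sources used here. The authors deposited 1 value per gene and sample, a signal adjusted for library size. The adjusted values summed to between 24088298 and 25206393 per sample, not to a common total. Changes are therefore relative to the authors' scaling, not to all reads on genes. Inverting the adjustment (edgeR's quantile adjustment, dispersion 0.0027) gave whole reads (tolerance 0.02) for 100% of the 96432 values that were at least 10. The deposited log2 fold change, p-value and q-value of the authors' own comparison were not used.

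The values were tested as log2(value + 1) with limma 3.58.1, with a variance trend, two-sided, and Benjamini-Hochberg adjustment, over the 16178 genes kept by filterByExpr of edgeR 4.0.16 (minimum count 10, minimum total 15). The pseudocount of 1 understates fold changes of genes with few reads. Alternatives were no filter, at least 10 in every sample, a pseudocount of 0.1, a replicate block, no variance trend, other scalings, edgeR's quasi-likelihood test and DESeq2 1.42.0 on the recovered reads, and leaving out each sample. The scripts were tested on simulated data.

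All 32 genes are named, and of each further list up to 3 genes with the largest log2 fold changes among those called, without overlap of the groups and with a mean of at least 50. Genes that overlap one of the 32 are named beside it, apart from those with few reads. The genes and lists were chosen with earlier results of these data known. Exons and lengths are those of GENCODE's canonical transcripts, and levels per length use 1 library size for all samples.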

Additional observations from a re-analysis of the deposited data

How the results depend on the processing

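The counts and medians of the 3 gene groups stayed within 1.5 times, or within the spread between replicates, under all alternatives but for the number of fatty acid enzymes higher. That number was 2, and it became 1 without a filter on low values, 1 with a replicate block and 0 in limma without the variance trend, and it ranged from 0 to 2 when each sample was left out. The change came from ACLY and ELOVL6, whose limma adjusted p values rose to as much as 0.178 and 0.0839. Of 512 values of single genes under the alternatives, 482 kept their direction and side of the threshold, 26 lost the call, 3 gained it and 1, MVK without DMSO replicate 1, turned sign. The log2 fold change of MVK ranged from -0.0107 there to 0.0753 without DMSO replicate 3. The calls lost were those of STARD4, ACLY, HSD17B7, ACAT2, ELOVL6 and SCD, the last without the variance trend alone (adjusted p 0.0544). STARD4 kept its call under 6 of 16 alternatives and ACLY under 9 of 16. The cause was not tested. Over all genes, limma called 6381 without the variance trend and 7349 with the replicate block, and DESeq2 called 6985.

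The labels number the samples 1 to 3 in each group. Deviations of samples with the same number correlated at -0.018, -0.017 and 0.0026, and those of samples with different numbers at -0.035 to 0.048. Whether samples with the same number were handled together cannot be told from these values. With the number as a block, STARD4 and ACLY lost their calls (limma adjusted p 0.0605 and 0.0688), and no other call among the 32 genes changed. Scaling by other methods moved the median of all genes by less than 0.1 on the log2 scale. Depth limits SC5D and TM7SF2 most, with 53 to 108 and 80 to 130 recovered reads per sample.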

Other observations

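In the isoprenoid branch that leaves the pathway after farnesyl diphosphate, 3 of 12 genes rose and 4 fell with pladienolide B, by limma with an adjusted p below 0.05 over all genes tested. These shares lie near the 22.4% higher and 25.2% lower among all genes tested. COQ2, which attaches the isoprenoid tail of ubiquinone, had 850.1, 910.2 and 791 adjusted reads in DMSO and 593, 499 and 543 in pladienolide B. Every treated sample of COQ2 was below every control, with a log2 fold change of -0.64 ± 0.08 (SE, n = 3 per group, limma adjusted p 2.8e-06). FNTA, the subunit shared by the enzymes that attach farnesyl and geranylgeranyl groups to proteins, had 3055, 3151 and 2952 adjusted reads in DMSO and 2168, 2198 and 2148 in pladienolide B. The FNTA groups were well apart, with a log2 fold change of -0.49 ± 0.04 (limma adjusted p 1.4e-07). RCE1, a protease that trims prenylated proteins, rose by 0.31 on the log2 scale (limma adjusted p 0.0013).

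Fatty acids are also made inside mitochondria by a separate set of enzymes, and of 6 such genes 2 were higher and 3 lower. Over all genes tested, 22.4% were higher and 25.2% lower. MECR, the enoyl reductase of this route, had 774, 801 and 788 adjusted reads in DMSO and 501, 478.5 and 514 in pladienolide B. MECR was lower in every treated sample, with a log2 fold change of -0.66 ± 0.07 (limma adjusted p 3.5e-07). CBR4, a reductase subunit, had a log2 fold change of -0.29 and MCAT, the malonyl transferase, rose by 0.27 on the log2 scale.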
